A study of Homo sapiens with 4 samples.

Results

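The genes described here make or import amino acids and one-carbon units. They are PHGDH, PSAT1 and PSPH of serine synthesis, SHMT2 and MTHFD2 of mitochondrial one-carbon metabolism, ALDH18A1 and PYCR1 of proline synthesis, and the transport proteins SLC7A11, SLC7A5 and SLC3A2. They were picked by gene symbol, with no threshold on any value but with earlier results of these data known. All 10 were found among the 9271 transcripts listed in the tables, each in all 4 libraries. Ribosome profiling was done on HEK293T, a cell line from human embryonic kidney that carries the simian virus large T antigen, and reads the pieces of mRNA covered by ribosomes (ribosome-protected fragments, RPFs). The 2 untreated libraries (replicates A and B) received no drug, and the 2 G418 libraries (replicates A and B) came from cells kept for 24 hr in 500 µg/mL of G418, an aminoglycoside antibiotic that makes ribosomes misread codons and read through stop codons. The cells share their genotype, and the study describes the replicates as biological, but no label ties a letter in one condition to that letter in the other. Pairs of values are given for replicate A and then replicate B.

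Reads on mRNAs ranged from 2440204 in untreated replicate B to 6082600 in untreated replicate A. Of 7 markers of the HEK293T line, 6 were listed in every library, with a summed CDS density of 775 to 784 RPKM in untreated and 654 to 686 RPKM in G418 libraries. Most of that sum was VIM, at 533 to 658 RPKM. KRT8 lay at 1.45 to 2.13 RPKM, below COL1A1 of the other lineages (3.59 to 5.54 RPKM), and CDH2 was not listed. Of 10 markers of other lineages, 2 were listed in any library, and their summed density was at most 6.89 RPKM. Replicates of a condition were not copies of each other, and untreated replicates differed more (chi-square per degree of freedom of 4.88) than G418 replicates (1.42).

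As background, serine is built from a glycolytic intermediate in the order PHGDH (oxidation), PSAT1 (transamination) and PSPH (dephosphorylation). SHMT2 moves a carbon unit from serine to folate in mitochondria and MTHFD2 oxidizes that folate, which feeds purine and thymidylate synthesis, while ALDH18A1 and PYCR1 catalyze the first and the last reaction from glutamate to proline. SLC3A2 is the heavy chain that carries either SLC7A5, which imports large neutral amino acids, or SLC7A11, which imports cystine in exchange for glutamate. The genes are often grouped because ATF4, a transcription factor translated when amino acids run short, can activate their transcription.

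The sequence around the normal termination codon (NTC) is shown for 5 members. Each line holds 15 bases before the stop, the stop codon with the nucleotide after it in capitals (the 4-nt stop), and the next bases of the 3′UTR, from GENCODE transcripts on hg38, written along the mRNA. MTHFD2, PSAT1 and SLC7A5 are given for their UAA, UGA and UAG codons, SLC3A2 because no in-frame stop codon follows in its 3′UTR, and PYCR1 as the member tested that was not called for readthrough.
MTHFD2 (stop at chr2:74214240-74214242, plus strand): gggguagccacuaauUAACuacugugucuu
PSAT1 (stop at chr9:78329084-78329086, plus strand): gagaugcaucagcuaUGAAcacauccuaac
SLC7A5 (stop at chr16:87832970-87832972, minus strand): gucccccaggagacaUAGCcaggaggccga
SLC3A2 (stop at chr11:62888691-62888693, plus strand): uuccccuacgcggccUGACuucagccugac
PYCR1 (stop at chr17:81932880-81932882, minus strand): gcacgggcuccuuccUGAGagcaaagguca

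Among the 10 members, 6 end in UGA, 3 in UAA and 1 in UAG, against 50.7%, 27.3% and 22.1% of all transcripts. The 3 UAA codons, those of PHGDH, PSPH and MTHFD2, are all followed by C. Among the UGA codons, that of PSAT1, SHMT2, ALDH18A1 and SLC7A11 is followed by A, that of PYCR1 by G and that of SLC3A2 by C. For 9 members the stop is that of the Ensembl canonical transcript. PYCR1 is the exception, since the deposited transcript's stop is used by 1 of its 8 coding transcripts and the canonical transcript ends at chr17:81933214-81933216. The deposited SLC3A2 transcript shares the canonical stop but has 630 codons against 529, so its CDS density and RRTS rest on the longer form. Which form was translated was not tested.

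How much G418 changed ribosome density on the coding sequences of these genes was asked first. Of the 10 members, 3 enzymes fell modestly in G418 and 1 transporter rose. PHGDH, the first enzyme of serine synthesis, fell to 0.761 of its untreated level, SHMT2 to 0.783 and ALDH18A1, the first enzyme of proline synthesis, to 0.698. SLC7A5, the light chain of the large neutral amino acid transporter, rose 1.28-fold. The other 6 members did not pass the test. The fall of 3 members and the rise of 1 stand against 3.21% of 8494 transcripts called lower and 5.31% called higher. The median log2 fold change was -0.16 over the members and 0.00 over all transcripts tested. Since the members were chosen with earlier results of these data known, these values describe them and do not test the set. In RPF data, a change in the amount of an mRNA and a change in ribosomes per mRNA cannot be told apart, nor can fewer cells and less RNA per cell. Counts are scaled within these libraries, so rises and falls are relative to the other transcripts, and a change shared by all would not show.

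Levels were compared on the deposited CDS density, in reads scaled to region length and mapped reads (RPKM). In untreated cells PHGDH was the most densely translated member at 440.25 RPKM ± 19.6 (SD, n = 2), denser than 96.4% of transcripts in replicate A and 96.9% in replicate B. PSAT1 followed at 249.8 ± 16.9, then MTHFD2 at 190.1 ± 8.52 and SHMT2 at 182 ± 6.67, SLC3A2 at 122 ± 2.01, and PYCR1 and ALDH18A1 at 97.6 ± 11.4 and 97.4 ± 4.37 (SD, n = 2 each). SLC7A5 lay at 58.9 ± 0.387, PSPH at 30.9 ± 1.97 and SLC7A11 was the least dense at 17.0 ± 2.54 (SD, n = 2 each). The replicates of neighbours in this order did not overlap, other than MTHFD2 with SHMT2 and PYCR1 with ALDH18A1. Together the members took 0.327% and 0.353% of untreated CDS reads and 0.302% and 0.312% of CDS reads in G418.

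**Figure D1:**
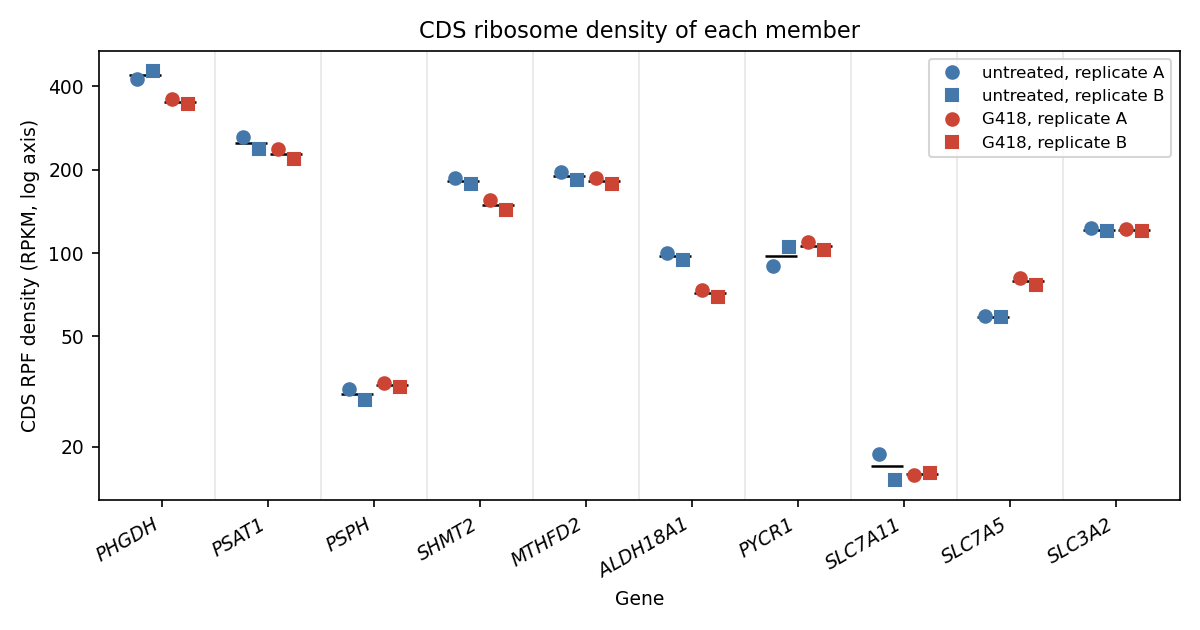
CDS density of each member in each library, in RPKM on a log axis; points are single libraries and black lines are means of 2. The G418 points lie below both untreated points for PHGDH, SHMT2 and ALDH18A1, above both for SLC7A5 and, narrowly, PSPH, and overlap them for SLC3A2 and PYCR1.

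For the test, deposited CDS counts were fitted over all transcripts with edgeR's quasi-likelihood test. Its TMM scaling sets the median log2 fold change of all transcripts near 0, at 0.00, whereas scaling to library totals, as RPKM does, puts it at 0.11, so a density can look level while the fitted change is slightly negative. With library totals 887 transcripts were called higher and 120 lower, in place of 451 and 273.

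PHGDH oxidizes 3-phosphoglycerate and so draws carbon from glycolysis into serine. Its density was 426 and 454 RPKM in untreated libraries and 359 and 346 RPKM in G418 libraries. Both G418 libraries were below both untreated libraries, with a log2 fold change of -0.39 (SE 0.08, 95% interval -0.56 to -0.22, adjusted p = 0.0026, edgeR's quasi-likelihood test). PSAT1, the transaminase of the next reaction, had 262 and 238 RPKM in untreated and 238 and 219 RPKM in G418 libraries, with a log2 fold change of -0.20 (95% interval -0.38 to -0.03, adjusted p = 0.14, edgeR). The lower untreated library lay just below the higher G418 library. PSPH, the phosphatase that releases serine, had 32.3 and 29.5 RPKM in untreated and 33.8 and 32.7 RPKM in G418 libraries. The G418 densities were just above the untreated ones, with a log2 fold change of 0.03 (95% interval -0.27 to 0.34, adjusted p = 0.93, edgeR). PSPH has a near-identical pseudogene copy, and since the authors kept a single alignment for reads that map to several places, its values are uncertain.

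In the mitochondrial one-carbon branch, SHMT2 fell while MTHFD2 did not pass the test. SHMT2 had 186 and 177 RPKM in untreated and 156 and 143 RPKM in G418 libraries, a log2 fold change of -0.35 (SE 0.09, 95% interval -0.53 to -0.18, adjusted p = 0.0083, edgeR's quasi-likelihood test). Every G418 value was below every untreated value. MTHFD2 had 196 and 184 RPKM in untreated and 187 and 178 RPKM in G418 libraries, with overlapping groups and a log2 fold change of -0.13 (95% interval -0.31 to 0.05, adjusted p = 0.40, edgeR). The ratio of MTHFD2 to SHMT2 density was 1.05 and 1.04 in untreated libraries and 1.198 and 1.24 in G418 libraries, which do not overlap (p = 0.333 by a two-sided exact permutation test, the lowest value 2 against 2 libraries can give).

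The proline pathway showed the deepest fall among the members. ALDH18A1, a bifunctional enzyme that turns glutamate into its semialdehyde, had 101 and 94.3 RPKM in untreated libraries and 73.8 and 69.2 RPKM in G418 libraries. The groups are well apart, with a log2 fold change of -0.52 (SE 0.09, 95% interval -0.70 to -0.34, adjusted p = 0.00024, edgeR's quasi-likelihood test), and 1.33% of transcripts fell further. PYCR1, which closes the pathway by making proline, had 89.5 and 106 RPKM in untreated and 109 and 103 RPKM in G418 libraries, with a log2 fold change of 0.07 (95% interval -0.16 to 0.29, adjusted p = 0.77, edgeR). Untreated replicate B lay between the G418 libraries. The ratio of PYCR1 to ALDH18A1 density was 0.891 and 1.12 in untreated and 1.48 and 1.49 in G418 libraries, without overlap (p = 0.333, two-sided exact permutation test).

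Among the transporters 1 light chain rose, and neither the other nor the heavy chain passed the test. SLC3A2 had 123 and 120 RPKM in untreated and again 123 and 120 RPKM in G418 libraries, with a log2 fold change of -0.08 (95% interval -0.26 to 0.11, adjusted p = 0.67, edgeR), which turns to 0.03 with library totals. SLC7A5 had 59.2 and 58.6 RPKM in untreated and 81.5 and 76.7 RPKM in G418 libraries. Both G418 libraries were above both untreated libraries, with a log2 fold change of 0.36 (SE 0.10, 95% interval 0.15 to 0.56, adjusted p = 0.021, edgeR's quasi-likelihood test). SLC7A5 density per SLC3A2 density was 0.481 and 0.488 in untreated and 0.665 and 0.639 in G418 libraries, a change larger than the spread between replicates (p = 0.333, two-sided exact permutation test). SLC7A11, the cystine carrier, had 18.8 and 15.2 RPKM in untreated and 15.8 and 16.0 RPKM in G418 libraries, with overlapping groups and a log2 fold change of -0.19 (95% interval -0.49 to 0.11, adjusted p = 0.46, edgeR). Its 87 to 247 CDS reads per library make it the member with the fewest CDS reads after PSPH.

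SHMT2 was not called with library totals (adjusted p = 0.0513, edgeR), and SLC7A5 was not called by DESeq2 (adjusted p = 0.0965). All 4 calls were lost when either G418 library was left out, while the log2 fold changes stayed close to those of the full fit. Without G418 replicate A and without G418 replicate B they were -0.37 and -0.42 for PHGDH and -0.36 and -0.35 for SHMT2. For ALDH18A1 they were -0.51 and -0.53, and for SLC7A5 0.36 and 0.34. In a fit without 1 library the spread comes from the pair left in the other condition alone, and the lone library is assumed to vary like it. The untreated pair differed more than the G418 pair (chi-square per degree of freedom of 4.88 and 1.42). Over the 10 alternatives tried the adjusted p ran from 2.45e-17 to 0.341 for PHGDH, from 3.75e-07 to 0.489 for SHMT2, from 1.6e-14 to 0.139 for ALDH18A1 and from 2.94e-06 to 0.578 for SLC7A5, and each kept its sign. Leaving out an untreated library added calls, PSAT1 as lower without either (adjusted p = 0.032 without replicate A and 0.0020 without replicate B) and PYCR1 as higher without replicate B (adjusted p = 0.020), where the adjusted p reached 0.831 for PSAT1 and 0.982 for PYCR1 over the alternatives.

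**Figure D2:**
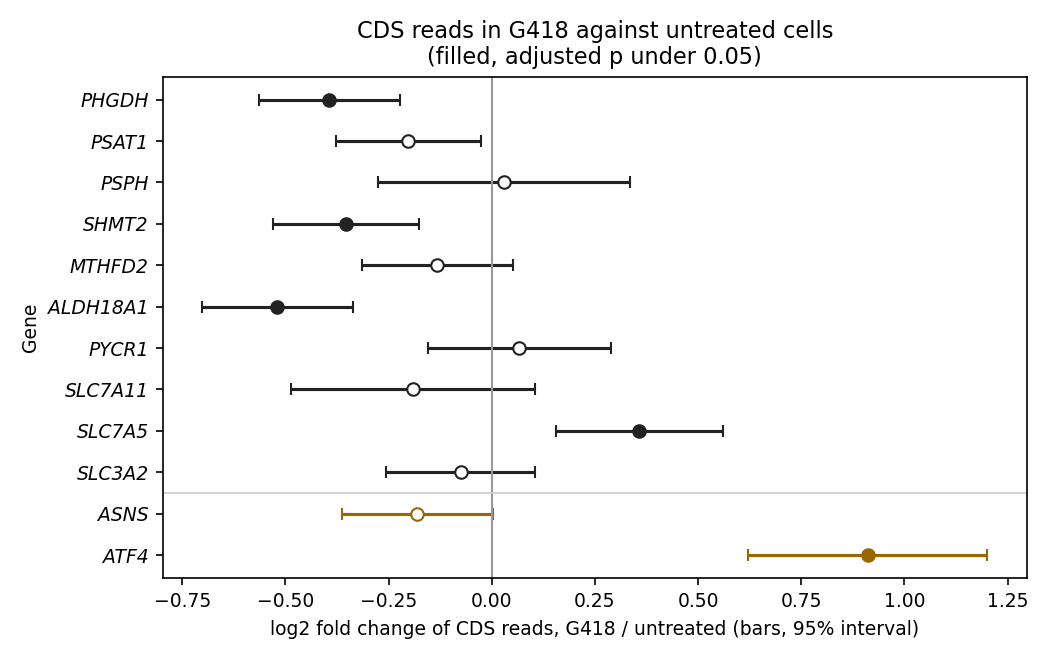
Fitted log2 fold change of CDS reads (G418 over untreated) with its 95% interval from edgeR's quasi-likelihood test, for the 10 members in black and for ASNS and ATF4 in brown; filled points passed an adjusted p of 0.05. ALDH18A1, PHGDH and SHMT2 lie below 0, SLC7A5 above 0, and ATF4 furthest to the right at 0.91.

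ATF4, the factor that can activate these genes, was measured in the same libraries. Its CDS density was 19.8 and 21.4 RPKM in untreated libraries and 38.4 and 41.7 RPKM in G418 libraries. Both G418 values were well above both untreated values, with a log2 fold change of 0.91 (SE 0.14, 95% interval 0.62 to 1.201, adjusted p = 0.0001, edgeR's quasi-likelihood test). That call was lost without G418 replicate B (log2 fold change 0.79, adjusted p = 0.061) and kept in the other 9 alternatives, the lowest adjusted p being 3.32e-13. The ATF4 5′UTR holds upstream reading frames that restrain the coding sequence. Over it there were 8.92 and 7.72 reads per CDS read in untreated and 5.61 and 4.08 in G418 libraries. The log2 fold change of this ratio was -0.78 (SE 0.12, adjusted p = 0.0058, edgeR). Its divisor is the CDS reads that rose, so it is not independent of the CDS change. Before any scaling, the 5′UTR held 1615 and 656 reads in untreated and 1846 and 1334 in G418 libraries. ASNS, the asparagine synthetase often used as a readout of ATF4, had 129 and 112 RPKM in untreated and 118 and 106 RPKM in G418 libraries. Its groups overlapped, with a log2 fold change of -0.18 (95% interval -0.36 to 0.00, adjusted p = 0.23, edgeR). Whether the higher ATF4 density bears on any member was not tested.

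The promoters of the members were read for TGATGNAA, the core of the amino acid response element that ATF4 binds, on both strands from 250 bases before to 50 after the start in RefSeq (GRCh38.p14). RefSeq promoters were at hand for 6 members, and PSPH, SHMT2, PYCR1 and SLC7A11 were not in that table. The letters occurred in 1 of the 6, SLC3A2, on the opposite strand, and in ASNS on its own strand. They occurred in 3.67% of all 27305 promoters and in 1.39% of the 6889 promoters of genes listed in every library. Both stretches are shown with the match in capitals, along the gene.
SLC3A2 (chr11:62881725-62881748, plus strand): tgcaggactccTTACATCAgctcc
ASNS (chr7:97872458-97872487, minus strand): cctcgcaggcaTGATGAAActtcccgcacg
Neither SLC3A2 nor ASNS passed the test of CDS reads, and the windows of PHGDH, PSAT1, MTHFD2, ALDH18A1 and SLC7A5 held no match. The windows of SLC3A2, ASNS and PHGDH do not lie at the start of the deposited transcript.

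Genes around the members were counted in 5 lists, also chosen with earlier results of these data known. The counts are to be read against the 5.31% of all transcripts called higher and the 3.21% called lower. At an unadjusted p of 0.05, 1940 of 8494 transcripts passed. Of 17 one-carbon genes tested, 1 fell and none rose. The gene that fell was AHCY, which hydrolyzes S-adenosylhomocysteine, with 308 and 299.8 RPKM in untreated and 239 and 209.7 RPKM in G418 libraries (log2 fold change -0.51, SE 0.08, adjusted p = 0.00018, edgeR's quasi-likelihood test). At an unadjusted p of 0.05, 3 of the 17 passed, and DESeq2 also called 1. Of 7 genes of proline, glutamate and asparagine metabolism, 1 fell and none rose. It was GOT2, the mitochondrial aspartate aminotransferase, with 305 and 308 RPKM in untreated and 259 and 243 RPKM in G418 libraries (log2 fold change -0.36, SE 0.08, adjusted p = 0.0060, edgeR). At an unadjusted p of 0.05, 2 of the 7 passed, and DESeq2 called 1.

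Of 20 other amino acid transporters, 1 rose and none fell, a share close to that of all transcripts. SLC25A15, the mitochondrial ornithine carrier, had 10.5 and 10.6 RPKM in untreated and 18.4 and 14.6 RPKM in G418 libraries (log2 fold change 0.59, SE 0.18, adjusted p = 0.039, edgeR's quasi-likelihood test). DESeq2 called no transporter, and 2 of the 20 passed an unadjusted p of 0.05. Of 6 genes of glutathione metabolism, downstream of cystine, none was called by edgeR or DESeq2 and none passed an unadjusted p of 0.05. Of 9 amino acid response genes, 2 rose and none fell, namely ATF4 and CEBPG, a partner of ATF4 in dimers (33.3 and 26.3 RPKM in untreated and 54.2 and 41.0 RPKM in G418 libraries, log2 fold change 0.56, SE 0.17, adjusted p = 0.032, edgeR). DESeq2 called 1 of the 9, out of 12 genes of this list found in the tables. At an unadjusted p of 0.05, 3 of the 9 passed. The third was lower in G418 (log2 fold change -0.59, adjusted p = 0.18, edgeR). Over the alternatives the adjusted p reached 0.16 for AHCY, 0.44 for GOT2, 0.678 for SLC25A15 and 0.697 for CEBPG, in each case without a G418 library.

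**Figure D3:**
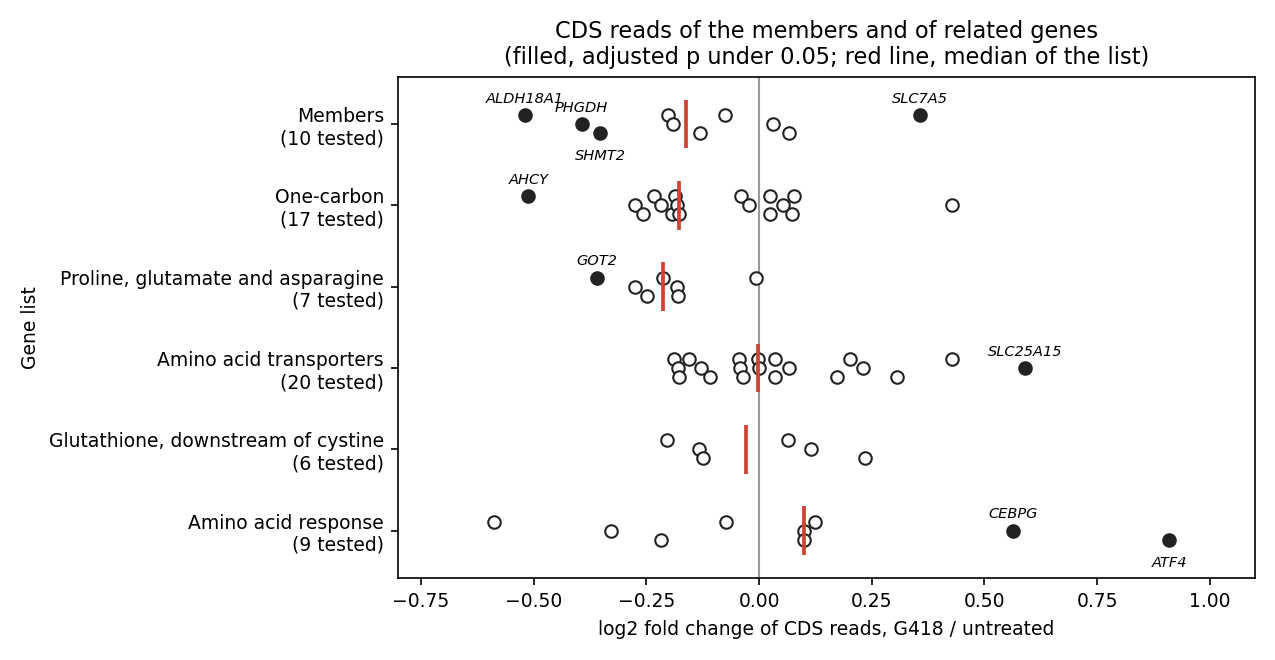
Fitted log2 fold change of CDS reads (G418 over untreated) for the 10 members and for 5 lists of related genes; each point is a gene, filled points passed an adjusted p of 0.05 in edgeR's quasi-likelihood test and carry their symbol, and red lines are medians. The medians of the one-carbon and proline lists lie below 0, at -0.18 and -0.21, and that of the amino acid response list lies above, at 0.10.

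Close relatives of the members did not pass edgeR's test with all libraries. SHMT1, the cytosolic counterpart of SHMT2, had a log2 fold change of -0.18 (95% interval -0.42 to 0.05). The cytosolic MTHFD1 and the mitochondrial MTHFD1L, which act on the same folates as MTHFD2, had -0.22 (adjusted p = 0.089, edgeR) and -0.19 (adjusted p = 0.23, edgeR). PYCR3, a relative of PYCR1, had 52.7 and 76.1 RPKM in untreated and 53.2 and 54.8 RPKM in G418 libraries. Its log2 fold change was -0.27 (adjusted p = 0.24, edgeR) and turned to 0.01 without untreated replicate B, while without untreated replicate A it was -0.64 and called (adjusted p = 3.49e-06). SLC7A6 and SLC7A8, other partners of SLC3A2, had 0.31 (adjusted p = 0.13) and -0.04 (adjusted p = 0.92, both edgeR), and SLC7A6 passed with library totals (adjusted p = 0.029). MTHFD2L was not tested.

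Readthrough of the NTC was asked next, with the ribosome readthrough score (RRTS), the read density from the NTC to the first in-frame stop codon of the 3′UTR (3′TC) divided by the CDS density. It rose with G418 for every member that could be tested other than PYCR1. Summed over the members, RRTS was 2.10% and 2.19% in untreated libraries (mean 2.14% ± 0.0660, SD, n = 2) and 22.8% and 23.0% in G418 libraries (mean 22.9% ± 0.146, SD, n = 2). The same sum over the 6509 transcripts with enough reads in both conditions was 1.99% and 1.81% in untreated and 15.8% and 15.1% in G418 libraries. The members' sum was thus 10.7-fold higher in G418, and that of the 6509 transcripts 8.13-fold (p = 0.333 for each by a two-sided exact permutation test). Without PYCR1, a choice made after the data were seen, the members' sums were 2.56% ± 0.00116 and 32.3% ± 0.306 (SD, n = 2). The untreated sums rest on 26 and 11 reads, so their small SD understates the counting error.

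By transcript, 8 of the 9 members tested were called higher and none lower, where 82.6% of 2827 transcripts were called higher and 0.0707% lower. The shares are close at this minimum of reads, so the count describes the members without setting them apart. Of the members tested, only SHMT2 had 10 reads before the first 3′TC in untreated libraries. The others reached the minimum through G418 reads, so a call of higher is partly built in. With a minimum of 3 reads, 2599 of 4839 transcripts and 8 of 9 members were called higher. With 20 reads these counts were 1536 of 1662 and 7 of 7. None of the 9 passed an unadjusted p of 0.05 in the lower direction, and DESeq2 called none lower. Untreated cells gave 28 and 13 reads over all members in replicates A and B, against 275 and 240 in G418, so the untreated values are the imprecise side of every ratio. With few untreated reads a fitted fold change depends on the fit, and ratios of pooled reads per CDS read with an exact 95% interval for counting error are given in its place. The median fitted fold was 11.99 over the 9 members and 9.06 over all 2827. The median ratio of pooled reads was 13.9 over the members and 6.38 over all, where the 568 transcripts without an untreated read were set at 3 reads, a bound that lowers the latter value and touches no member.

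Among the serine enzymes, PHGDH had an RRTS of 0.875% and 1.89% in untreated (2 reads each) and 21.02% and 21.4% in G418 libraries (38 and 34 reads). The ratio of pooled reads was 17.7 (95% interval 6.62 to 66.8, adjusted p = 1.03e-13, edgeR's quasi-likelihood test). PSAT1 had 1 untreated read in replicate A and 0 in replicate B, and an RRTS of 57.5% and 30.9% in G418 libraries (31 and 14 reads). It was the highest member in G418 replicate A, yet the replicates were far apart and the ratio was uncertain at 39.9 (95% interval 6.81 to 1612, adjusted p = 4.1e-09, edgeR). PSPH had 1 and 0 untreated reads and an RRTS of 31.8% and 32.3% in G418 libraries (10 and 9 reads), a ratio of 14.3 (95% interval 2.28 to 595, adjusted p = 0.0016, edgeR), and was not called by DESeq2 (adjusted p = 0.051, the highest of its 10 alternatives, which start at 0.00058).

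Readthrough of the one-carbon enzymes was the best measured. SHMT2 had an RRTS of 3.20% and 1.94% in untreated libraries (8 and 2 reads) and 38.3% and 40.6% in G418 libraries (75 and 67 reads). The ratio was 13.9 (95% interval 7.33 to 29.6, adjusted p = 2.24e-24, edgeR's quasi-likelihood test). MTHFD2 had 3.46% and 4.23% in untreated (6 and 3 reads) and 38.1% and 42.9% in G418 libraries (59 and 58 reads), with a ratio of 10.9 (95% interval 5.57 to 24.5, adjusted p = 3.55e-17, edgeR). MTHFD2 lay above PHGDH in both G418 libraries, although both end in UAAC. In G418 replicate A the 95% counting interval was 14.9% to 28.9% for PHGDH and 28.98% to 49.1% for MTHFD2.

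The proline enzymes differed most. ALDH18A1 had an RRTS of 1.401% and 0% in untreated libraries (2 and 0 reads) and 27.4% and 22.5% in G418 libraries (27 and 19 reads), a ratio of 25.3 (95% interval 6.62 to 215, adjusted p = 5.44e-10, edgeR's quasi-likelihood test). PYCR1 had 0.627% and 1.22% in untreated and 1.37% and 0.952% in G418 libraries, from 2 to 5 reads per library over 399 nt. Its groups overlapped, with a ratio of 1.42 (95% interval 0.380 to 6.44, adjusted p = 0.63, edgeR) and a fitted log2 fold change of 0.48 that turned to -0.05 without untreated replicate A. The NTC of the deposited PYCR1 transcript is not that of the canonical transcript, and the part this plays in the low value was not tested.

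The transporters spanned the range of precision. SLC7A5 had 1 and 0 untreated reads and an RRTS of 24.4% and 40.5% in G418 libraries (7 and 10 reads), a ratio of 10.1 (95% interval 1.59 to 423, adjusted p = 0.0086, edgeR's quasi-likelihood test). The call was lost in 3 of its 9 alternatives, among them without G418 replicate B (adjusted p = 0.169, the highest of the 9, which start at 0.0064) and with DESeq2 (adjusted p = 0.097). SLC3A2 had the highest untreated RRTS in both replicates, 5.17% and 9.72% (5 and 4 reads), and 25.4% and 29.6% in G418 libraries (23 and 24 reads). Its ratio of 4.201 (95% interval 2.04 to 9.75, adjusted p = 0.00014, edgeR) was the smallest among the 8 members called. No other member ends in UGAC. Among 664 transcripts with that stop the untreated median was 3.45%, and SLC3A2 (6.53% with replicates pooled) exceeded 60.5% of them. Before its first 3′TC, over 45 nt, SLC7A11 had 0 reads in 3 libraries and 2 reads in G418 replicate B. In untreated replicate A the absence of reads allows an RRTS of up to 39.8%, so readthrough of SLC7A11 was not detectable at this depth and was not tested.

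**Figure D4:**
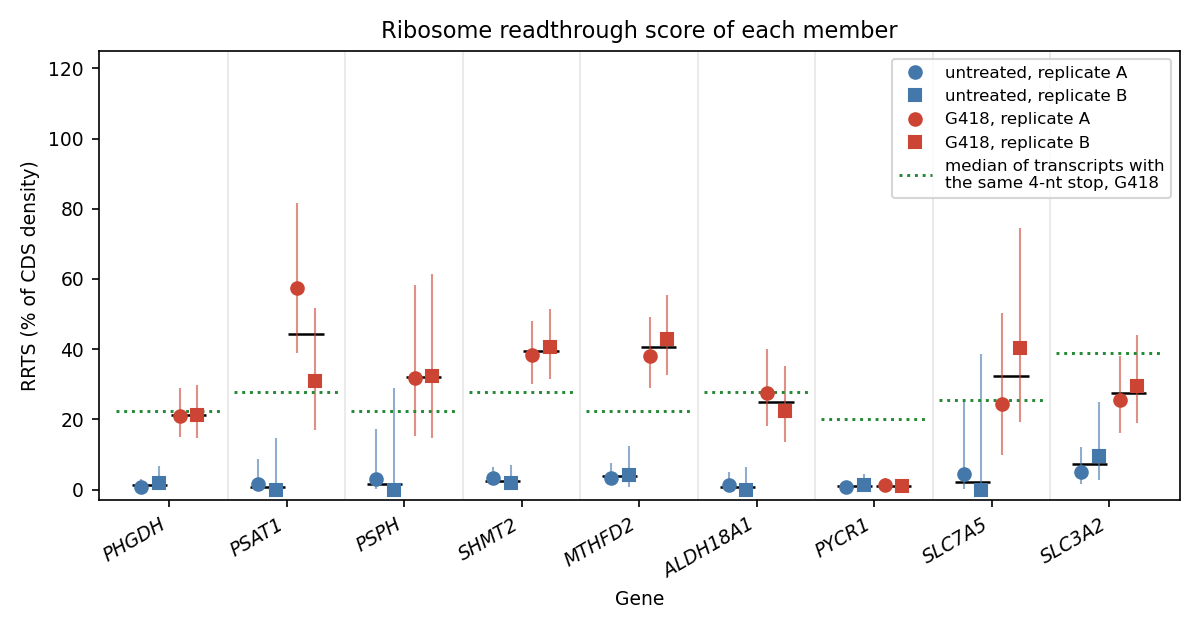
RRTS of the members in percent of CDS density, without SLC7A11; points are single libraries with 95% counting intervals, black lines are means of 2, and green dotted lines are the G418 median of all transcripts with the same 4-nt stop. All G418 points lie above the untreated points except for PYCR1, whose 4 points lie near 1% while the green line is at 20.02%.

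Set beside transcripts with the same 4-nt stop in G418, with reads of both replicates pooled, the members fell on both sides of the median. Among 400 transcripts ending in UAAC the median RRTS was 22.3%, and PHGDH (21.2%) exceeded 47.3% of them, PSPH (32.0%) 66.3% and MTHFD2 (40.3%) 76.5%. Among 972 ending in UGAA the median was 27.7%, and ALDH18A1 (25.2%) exceeded 45.99% of them, SHMT2 (39.3%) 69.2% and PSAT1 (45.4%) 75.8%. SLC7A5 (31.8%) exceeded 62.2% of 473 transcripts ending in UAGC, and SLC3A2 (27.4%) 35.2% of 761 ending in UGAC. PYCR1 (1.18%) exceeded 12.6% of 1378 ending in UGAG, whose median was 20.02%.

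The distance to the first 3′TC varied, from 10 codons in PSAT1 to 134 in PYCR1, with 15 in SLC7A5, 16 in SLC7A11, 21 in PHGDH, 34 in MTHFD2, 38 in PSPH, 51 in SHMT2 and 54 in ALDH18A1. The 3′UTR of SLC3A2, of 100 nt, has no in-frame stop codon. Reads also fell on the 3′UTR beyond the first 3′TC. For PSAT1 there were 3 and 0 such reads in untreated and 34 and 27 in G418 libraries, more than the 31 and 14 before it, on a 3′UTR of 1007 nt. For PHGDH there were none in untreated and 15 and 11 in G418 libraries. SLC7A5 had 12 and 4 in untreated and 23 in each G418 library, and was the member with the most such reads in untreated cells. SHMT2, with 3 to 8 in G418 libraries and 0 in untreated, and ALDH18A1, with 2 in each G418 library, had few.

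Finally, ribosomes on the 5′UTR were counted per CDS read. PSPH stood out in level, with 82.3 and 89.2 5′UTR reads per 100 CDS reads in untreated and 69.9 and 54.9 in G418 libraries, on a 5′UTR of 806 nt. Its 5′UTR thus held 45% and 47.1% of its mRNA reads in untreated and 39.9% and 33.8% in G418 libraries, subject to the pseudogene copy. PHGDH, with a 5′UTR of similar length (833 nt), had 2.03 and 1.70 5′UTR reads per 100 CDS reads in untreated and 1.63 and 1.39 in G418 libraries. SLC7A11 was second to PSPH, at 6.88 and 10.3 in untreated and 10.3 and 9.39 in G418 libraries. MTHFD2, whose 5′UTR has 27 nt, had a single 5′UTR read in all libraries and was not tested.

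**Figure D5:**
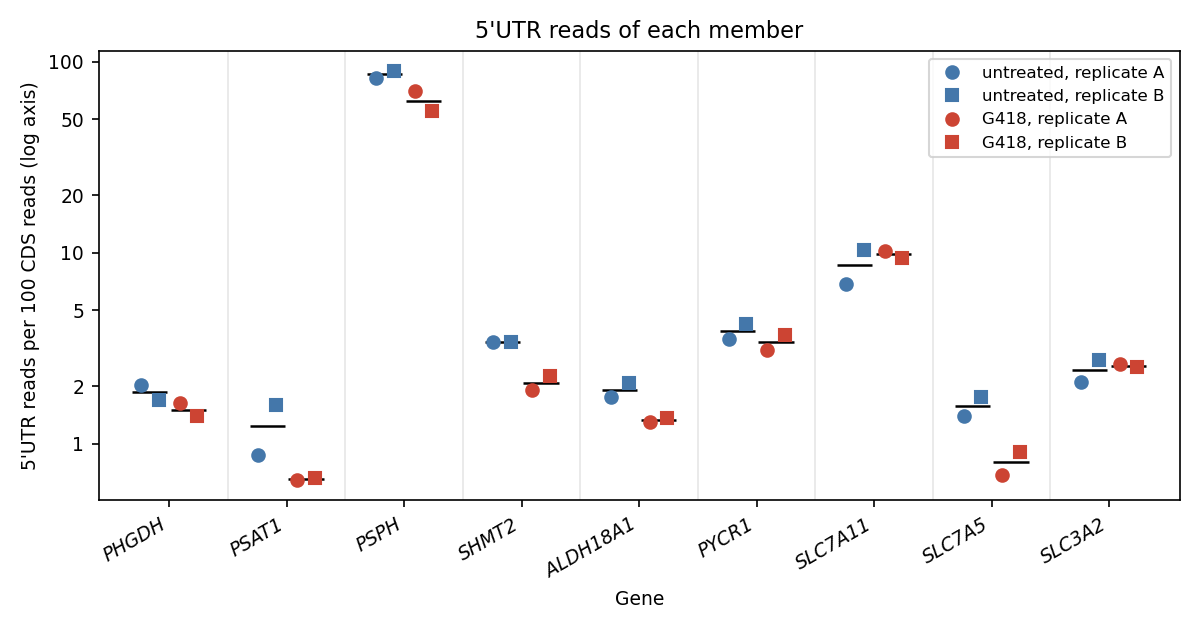
Reads on the 5′UTR per 100 CDS reads for each member other than MTHFD2, on a log axis; points are single libraries and black lines are means of 2. PSPH lies at 54.9 to 89.2, SLC7A11 near 10, and the others at 4.24 or below.

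Of the 9 members tested, none was called for 5′UTR reads per CDS read by edgeR, where 0.0235% of 4254 transcripts were called higher and 1.39% lower. DESeq2 gave an adjusted p only for PHGDH (0.74), PSPH (0.536) and SHMT2 (0.399), and so no verdict on the other members. At an unadjusted p of 0.05 in edgeR, 1 of the 9 and 561 of all transcripts passed. The member was SHMT2, with 3.40 and 3.43 5′UTR reads per 100 CDS reads in untreated and 1.91 and 2.27 in G418 libraries, a log2 fold change of -0.71 (95% interval -1.32 to -0.11, adjusted p = 0.29, edgeR's quasi-likelihood test). The fitted log2 fold change was below 0 for 7 of the 9 members, with a median of -0.44 against -0.17 over all transcripts. PSPH had -0.44 (95% interval -0.91 to 0.02), PSAT1 -0.78 (-1.71 to 0.15) and SLC7A5 -0.93 (-2.08 to 0.23). These intervals all include the change of this ratio in ATF4 (-0.78), whose CDS reads, the divisor, rose. So do those of the other members tested except SLC7A11 (-0.59 to 1.19) and SLC3A2 (-0.53 to 0.77), which lie above it.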

How the data were processed

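HEK293T libraries, 2 untreated and 2 treated with G418, were grouped by GEO's labels. Per the study's methods the authors collapsed reads by molecular identifier, removed noncoding RNA, aligned the rest to hg38 with STAR, kept 1 alignment per multimapping read (up to 200 positions) and 1 transcript per gene (GENCODE 30, the 3′-most stop codon), and counted RPFs of 28 to 35 nt, leaving out 6 nt after the NTC. They deposited raw counts, RPM (reads scaled to mapped reads) and RPKM densities. The authors' deposited ratio is RRTS. The deposited 5′UTR density, treated as a score, was not used. No RNA-seq library was used here.

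Whole reads were recovered from RPM (100% of values within 0.01 of whole). The CDS test used deposited counts of transcripts in all 4 tables, with edgeR 4.0.16 (R 4.3.3), TMM scaling and its filter. Readthrough used recovered reads before the first 3′TC with log(CDS reads + 0.5) as offset, for at least 10 such reads and 128 mRNA reads per condition, and 5′UTR reads likewise (at least 20, and 128 CDS reads). The aggregate RRTS sums reads before the first 3′TC and divides by the reads that CDS densities would place there. The threshold was a Benjamini-Hochberg adjusted p of 0.05. Intervals and the limit of 3 reads cover counting error only. Alternatives were DESeq2 1.42.0, other scalings and minima, the whole 3′UTR, an interaction model, a replicate block and each library left out. The tests were checked on simulated data. Sequences came from GENCODE 44 and RefSeq. Python 3.11.15, pandas 2.3.3, scipy 1.17.1 and matplotlib 3.10.9 were used.

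The text names all members, ATF4, ASNS, paralogs of members, some cell line markers and, per list, up to 2 rises and 2 falls past the threshold. The members and lists were chosen with earlier results of these data known.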

Additional observations from a re-analysis of the deposited data

How the results depend on the processing

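Across 10 alternatives for CDS reads, 84 of 100 values of members kept their sign and their side of the threshold, as did 83 of 88 for readthrough and 60 of 62 for 5′UTR reads per CDS read. In the last of these, members to which DESeq2 gave no adjusted p were counted as not called. The limits are 2 libraries per condition and, for readthrough, untreated counts of 0 to 8 reads per member and library. With DESeq2, 113 transcripts were called higher and 140 lower in CDS reads, with 0 members higher, and 1408 higher and 1 lower in readthrough. With library totals, CDS calls were 887 and 120, the log2 fold change of SLC3A2 was 0.0287 and that of SLC7A8 0.0597. A minimum of 20 reads before the 3′TC left 1536 transcripts called higher, and the whole 3′UTR gave 10 lower. For 5′UTR reads per CDS read, 0 were higher with DESeq2, and a minimum of 50 reads gave 0 higher and 30 lower. The cause was not tested, other than that a higher minimum tests fewer transcripts.

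Leaving out 1 library at a time gave CDS calls of 58 to 999 higher and 15 to 1083 lower, members called of 0 to 2 higher and 0 to 4 lower, readthrough calls of 1496 to 2265 higher and 1 to 2 lower, and 5′UTR calls of 0 to 29 higher and 16 to 296 lower. Log2 fold changes that crossed 0 among these fits ran in CDS reads from -0.0023 (without G418 replicate B) to 0.0656 for PSPH, from -0.13 (without untreated replicate A) to 0.2276 for PYCR1, from -0.6354 to 0.0114 (without untreated replicate B) for PYCR3 and from -0.1402 to 0.0035 (without untreated replicate B) for SLC7A8. Without untreated replicate A the lowest values were -0.0516 for PYCR1 in readthrough (highest 0.8683), -0.0675 for SLC7A11 in 5′UTR reads (highest 0.5106) and -0.104 for SLC3A2 in 5′UTR reads (highest 0.2861).

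The replicate letters occur in both conditions. The deviations of replicate A from the group means correlated at 0.226 between conditions over 6509 transcripts, and 2 letters cannot show that they mark shared cultures. With the letter as a replicate block, 452 transcripts were called lower in CDS reads, 6 higher and 98 lower in 5′UTR reads, and readthrough of SLC7A5 lost its call (log2 fold change 3.02, adjusted p = 0.054, edgeR). The same members were called in CDS reads.

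The members' RRTS was 1.48% in untreated and 29.0% in G418 libraries as a median over members, 0.362% and 2.96% over the whole 3′UTR, and, chosen after the data were seen, 2.56% and 32.3% without PYCR1. Replicate A alone gave 2.10% and 22.8%, and replicate B alone 2.19% and 23.0%.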
